A study of Mus musculus with 6 samples.

Results

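The IL-6 family is a group of cytokines that signal through one shared receptor chain. Of its genes, 10 were chosen by name: the shared chain Il6st, the receptor chains Lifr, Osmr, Il6ra, Cntfr and Il11ra1, the transcription factor Stat3, and the ligands Lif, Osm and Il6. A probe set (a group of short array probes read as one value) counted when the platform's annotation named that gene alone, which held for 22 probe sets of 9 of the 10 genes, out of 18193 genes and 45037 probe sets in all. Il11ra1 had none and was not analysed here. Each gene was read from the probe set that averaged highest across the 6 arrays, and its other probe sets are given beside it. The mean level thus chose the probe set, and the family was proposed with earlier results of these same arrays known. The p-values below come from the fit over all genes, and they are no independent evidence for the family.

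The samples were cells sorted by flow cytometry from the pooled fore and hind limb skeletons of mouse litters at postnatal day 3. One population, called Tie2-positive here, was titled CD45-negative, Ter119-negative, low for integrin alpha V (Itgav) and positive for Tie2, the angiopoietin receptor of endothelial cells. The other, called Tie2-negative here, was titled negative for all of CD45, Ter119, Itgav and Tie2. Both were untreated, and a dash after an antigen in the sample titles was taken to mean negative. The genotype label of both populations was wild type, while the growth protocol speaks of GFP-labelled mice. Each population had 3 arrays (Affymetrix 430-2.0), and no source used here says whether the 3 came from separate litters. The p-values therefore reflect only how much these samples varied, and that variation may be technical. The deposited table held values between 2.56 and 14.78, read as log2 from that range, with no detection calls. After quantile normalization the values of the genes had a lower quartile of 5.11, a median of 6.55 and an upper quartile of 8.47, which places the levels below on the scale of these arrays. All changes are Tie2-positive minus Tie2-negative.

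As background, Il6st encodes gp130, the chain that all these receptors share and that carries the signal into the cell. Lifr and Osmr encode signalling chains that pair with gp130: LIF acts through gp130 with the LIF receptor, and oncostatin M (Osm) through gp130 with the OSM receptor or, in humans, also the LIF receptor. Il6ra, Cntfr and Il11ra1 encode chains that bind one ligand each and do not signal by themselves. Janus kinases bound to gp130 then activate STAT3, whose targets include Socs3, a feedback inhibitor that binds gp130. In bone marrow, these cytokines act on blood-forming cells, endothelium and bone cells.

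The sorted populations differed in more than the antigen of the gate. Tek, the gene of Tie2, lay between 9.80 and 12.06 in Tie2-positive and between 4.79 and 4.90 in Tie2-negative arrays. All 10 endothelial marker genes had a higher mean in Tie2-positive arrays, and 9 passed in limma at an adjusted p of 0.05 (4.86% of all genes rose). The median level of the 10 lay between 9.20 and 11.78 in Tie2-positive and between 5.55 and 5.75 in Tie2-negative arrays. Replicate 1 was the highest and replicate 3 the lowest of the Tie2-positive arrays. The median of 9 measured neutrophil and monocyte markers was 6.01, 11.74 and 13.34 in Tie2-positive replicates 1, 2 and 3, against 6.14, 8.11 and 8.68 in Tie2-negative replicates 1, 2 and 3. The medians of 8 erythroid and 9 early B-cell markers lay between 5.46 and 8.14 and between 5.40 and 5.74 in Tie2-positive arrays, against 11.26 to 12.44 and 7.85 to 10.47 in Tie2-negative arrays. The median of 6 measured megakaryocyte markers was 6.47, 9.05 and 7.72 in Tie2-positive replicates 1, 2 and 3, against 5.93 to 6.02 in Tie2-negative arrays, and Pf4 (platelet factor) alone of them passed, with a change of 5.29 ± 0.79 (SE, 3 arrays each; limma adjusted p = 0.0170). None of the 10 measured mesenchymal and skeletal markers passed the test in limma, and their median lay between 5.69 and 6.28 in Tie2-positive and between 5.59 and 5.87 in Tie2-negative arrays. Ptprc, the gene of CD45, which both gates excluded, gave 4.87, 9.95 and 11.23 in Tie2-positive replicates 1, 2 and 3, against 9.42 to 10.41 in Tie2-negative arrays. In such bulk samples, fewer cells of a type and less RNA per cell cannot be told apart.

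The shared chain and the signalling chains that pair with it were far higher in Tie2-positive cells, while neither of the measured ligand-binding chains passed the test. In limma, with Benjamini-Hochberg adjustment over 18193 genes, 5 of the 9 measured members rose in Tie2-positive cells (Il6st, Lifr, Osmr, Stat3 and Il6), 0 fell and 4 did not pass. Of all genes, 4.86% rose and 2.53% fell at the same threshold, an adjusted p of 0.05. The median change was 1.53 over the 9 members and -0.11 over all genes. The populations did not overlap for 7 of the 9 members, 5 of them higher and 2 (Il6ra and Cntfr) lower in Tie2-positive arrays. Among all genes the populations did not overlap for 39.1%, of which 15.2% of all genes were higher and 23.9% lower in Tie2-positive arrays.

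**Figure D1:**
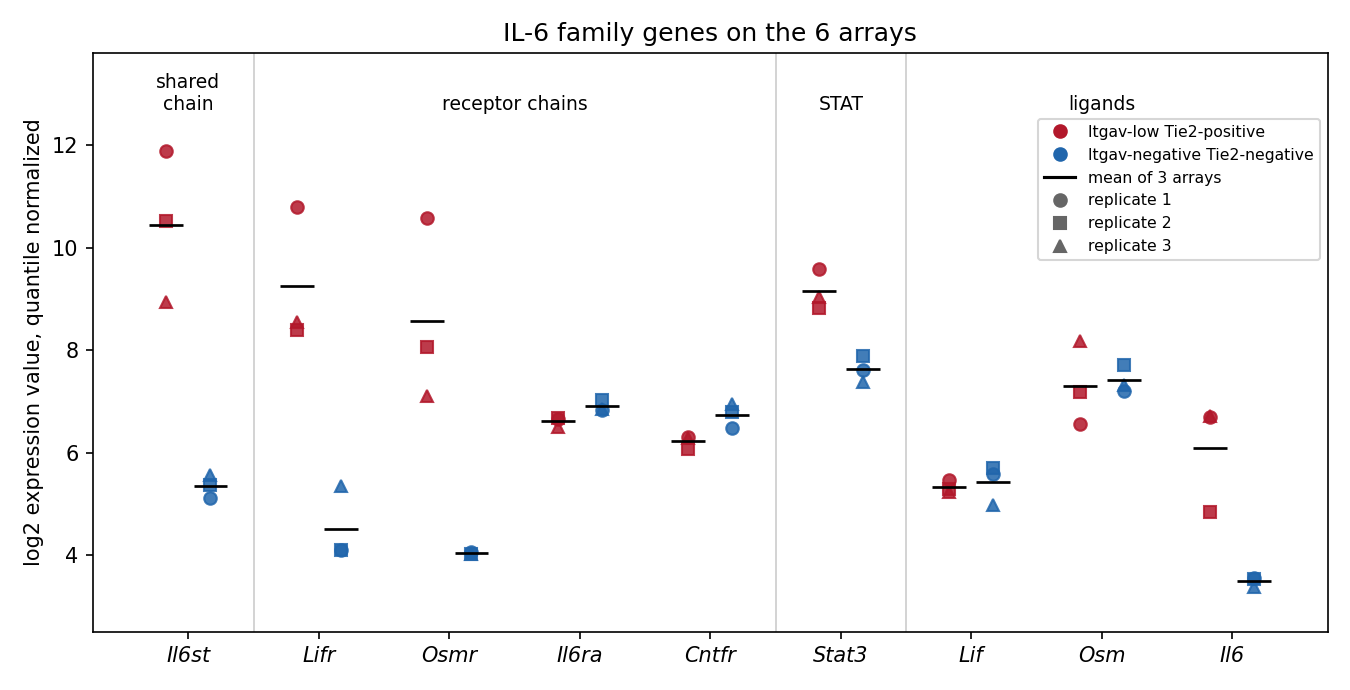
The plot gives the quantile-normalized log2 value (vertical axis) of each of the 9 measured genes on each array, with Tie2-positive arrays in red left of Tie2-negative arrays in blue, symbols for the replicates and a black line at the mean of 3 arrays. Il6st, Lifr, Osmr, Stat3 and Il6 lie higher on all Tie2-positive arrays, with Tie2-positive replicate 1 highest for the first 4 of them, while the populations differ little or overlap for Il6ra, Cntfr, Lif and Osm.

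Il6st, the shared chain, had values of 11.89, 10.52 and 8.93 in Tie2-positive replicates 1, 2 and 3, against 5.12, 5.36 and 5.57 in Tie2-negative replicates 1, 2 and 3. The Tie2-negative values lay close together, whereas the Tie2-positive values were spread widely, highest and lowest on the same arrays as the endothelial marker median (11.78 and 9.20). The part of endothelial cell content in the difference was not tested, here or for Lifr and Osmr. The change was 5.10 ± 0.69 (SE, n = 3 per population; limma adjusted p = 0.0138), a 34.2-fold difference with a 95% interval of 3.46 to 6.73 on the log2 scale. The size depended on single arrays, with a change of 4.38 without Tie2-positive replicate 1 and 5.86 without Tie2-positive replicate 3. A second Il6st probe set gave 10.07, 8.56 and 7.37 in Tie2-positive replicates 1, 2 and 3 against 4.15 to 4.96 in Tie2-negative arrays, and it was also called (4.06 ± 0.63, SE; limma adjusted p = 0.0200 over all probe sets, of which 4.99% were called, 3.39% higher and 1.6% lower). The third, of a kind that can match several transcripts, changed by 1.66 ± 0.50 (SE) and did not pass (limma adjusted p = 0.103). The fourth gave 6.16, 5.49 and 5.83 in Tie2-positive replicates 1, 2 and 3, against 5.58 to 5.94 in Tie2-negative arrays, and overlapped between the populations. Over the mean of all 4 probe sets the change was 2.72 (limma adjusted p = 0.0280).

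Lifr, the chain that completes the LIF receptor, had values of 10.79, 8.40 and 8.55 in Tie2-positive replicates 1, 2 and 3, against 4.10, 4.09 and 5.34 in Tie2-negative replicates 1, 2 and 3. Replicate 1 stood above the other Tie2-positive arrays, and Tie2-negative replicate 3 above the other Tie2-negative arrays. The values of Tie2-negative replicates 1 and 2 lay under the lower quartile of all gene values (5.11). Whether they lay above background is not known. The change was 4.74 ± 0.69 (SE, 3 arrays each; limma adjusted p = 0.0162). Both other Lifr probe sets changed by 1.81 ± 0.59 (SE) and 0.31 ± 0.32 (SE) without passing. Without Tie2-positive replicate 1 the Lifr change was 3.96. Over the mean of all 3 Lifr probe sets the change was 2.28 (limma adjusted p = 0.0475).

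Osmr, the oncostatin M receptor chain, had values of 10.57, 8.06 and 7.10 in Tie2-positive replicates 1, 2 and 3, against 4.06, 4.02 and 4.03 in Tie2-negative replicates 1, 2 and 3. The Tie2-negative values were nearly equal and under the lower quartile of all gene values, and without detection calls it is not known whether they lay above background. The change was 4.54 ± 0.81 (SE, n = 3 per population; limma adjusted p = 0.0260). Neither of its other probe sets passed, with changes of -0.24 ± 0.21 (SE) and 0.23 ± 0.11 (SE) and levels between 4.03 and 5.16 over all arrays. Over the mean of all 3 Osmr probe sets the change was 1.51 (limma adjusted p = 0.0413). Without Tie2-positive replicate 1 the Osmr change was 3.54, and without Tie2-positive replicate 3 it was 5.28. Osmr and Stat3 did not pass without Tie2-positive replicate 2 (limma adjusted p = 0.0617 and 0.0534) or without Tie2-negative replicate 3 (0.0818 and 0.0910).

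**Figure D2:**
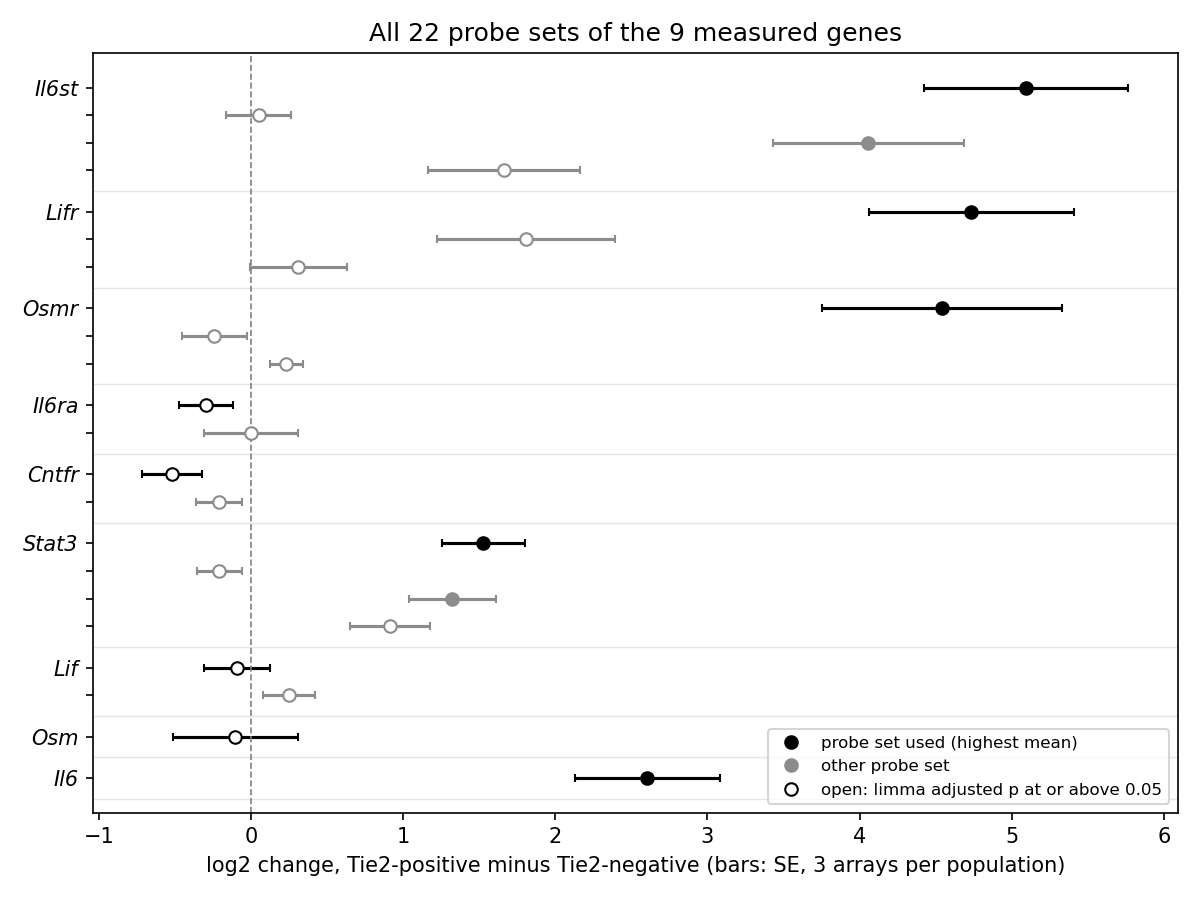
The plot gives the log2 change (horizontal axis, Tie2-positive minus Tie2-negative, bars for the SE, 3 arrays per population) of each of the 22 probe sets, with the probe set used in black, the others in grey and open symbols where the limma adjusted p over all probe sets was at or above 0.05. Of the 13 other probe sets 2 were called, 1 of Il6st and 1 of Stat3, and the changes within Il6st run between 0.05 and 5.10.

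Because Il6st, Lifr and Osmr all rose, the bases before their transcription start are shown, with those of Il6 and of the feedback inhibitor Socs3. The sequences are the 250 bases before an annotated start (RefSeq, GRCm38.p6), printed 5′ to 3′ in lower case. Capitals mark matches on either strand to a STAT motif (TTCNNNGAA), an ETS motif (CCGGAAG), an AP-1 motif (TGANTCA) or an NF-kB motif (the letters GGGATTTTCC with any base at position 5). Windows were found for 9 of the 10 members, and Lifr has another annotated start that is not shown.
Il6st, chr13:112463820-112464069, plus strand: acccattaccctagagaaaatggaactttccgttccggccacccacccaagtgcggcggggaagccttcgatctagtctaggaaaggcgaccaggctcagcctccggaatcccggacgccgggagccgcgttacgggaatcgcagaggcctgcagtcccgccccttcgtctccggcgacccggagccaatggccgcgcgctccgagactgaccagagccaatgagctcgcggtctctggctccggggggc
Lifr, chr15:7129322-7129571, plus strand: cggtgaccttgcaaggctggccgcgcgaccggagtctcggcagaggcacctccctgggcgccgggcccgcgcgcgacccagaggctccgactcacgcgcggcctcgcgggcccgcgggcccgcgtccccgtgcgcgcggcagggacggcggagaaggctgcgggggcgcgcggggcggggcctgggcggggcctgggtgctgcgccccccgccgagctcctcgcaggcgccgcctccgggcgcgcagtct
Osmr, chr15:6874314-6874563, minus strand: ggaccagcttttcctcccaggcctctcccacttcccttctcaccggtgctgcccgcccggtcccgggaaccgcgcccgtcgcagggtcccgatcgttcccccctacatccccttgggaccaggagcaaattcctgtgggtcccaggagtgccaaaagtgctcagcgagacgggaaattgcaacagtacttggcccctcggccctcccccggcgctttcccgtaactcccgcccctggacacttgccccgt
Il6, chr5:30012864-30013113, plus strand: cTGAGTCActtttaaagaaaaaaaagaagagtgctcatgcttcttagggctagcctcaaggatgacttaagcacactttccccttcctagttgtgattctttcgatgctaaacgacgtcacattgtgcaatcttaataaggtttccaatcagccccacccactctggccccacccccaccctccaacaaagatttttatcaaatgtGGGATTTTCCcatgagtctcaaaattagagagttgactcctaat
Socs3, chr11:117969367-117969616, minus strand: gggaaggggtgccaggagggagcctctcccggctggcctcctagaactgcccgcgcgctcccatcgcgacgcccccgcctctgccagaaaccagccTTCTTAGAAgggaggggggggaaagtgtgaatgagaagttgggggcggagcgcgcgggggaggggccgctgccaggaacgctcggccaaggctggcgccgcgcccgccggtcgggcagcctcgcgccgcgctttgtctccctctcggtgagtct
The windows of Il6st, Lifr and Osmr held none of these letters, including the second Lifr window. Among the members' windows, AP-1 matches were found for Lif, which did not pass the test (TGACTCA, 228 to 222 bases before the start), and for Il6 (TGAGTCA, 249 to 243 bases before it). The Il6 window also held an NF-kB match (GGGATTTTCC, 44 to 35 bases before the start), and the Socs3 window a STAT match (TTCTTAGAA, 154 to 146 bases before it). Of 32851 windows of this length, 7.02% held the STAT, 6.91% the ETS, 6.75% the AP-1 and 0.356% the NF-kB letters. The motifs were chosen after values were seen, so these shares do not measure how unusual a match is. No 2 matches overlapped in the printed windows, and a match is a description of the letters, not evidence of binding.

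Of the chains that bind a single ligand, neither measured member passed the test. Il6ra, the IL-6 binding chain, had values of 6.66, 6.68 and 6.49 in Tie2-positive replicates 1, 2 and 3, against 6.83, 7.04 and 6.85 in Tie2-negative replicates 1, 2 and 3. All Tie2-positive arrays were lower, yet by little: the change was -0.30 ± 0.17 (SE, n = 3 per population; limma adjusted p = 0.285), with a 95% interval of -0.70 to 0.11. For this probe set, that interval lies below the changes of the probe sets used for Il6st, Lifr and Osmr, whose lower bounds were 3.46, 3.09 and 2.62. It does not bound the Il6ra transcript as such, since some other probe sets of Il6st, Lifr and Osmr also changed little. The other Il6ra probe set gave 5.47, 5.97 and 6.67 in Tie2-positive replicates 1, 2 and 3, against 5.85 to 6.25 in Tie2-negative arrays, a change of -0.0017 ± 0.31 (SE). This probe set was highest on the Tie2-positive array with the highest neutrophil and monocyte median and lowest on the one with the lowest, and the part of those cells in it was not tested.

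Cntfr, which encodes the binding chain for ciliary neurotrophic factor, had values of 6.31, 6.08 and 6.28 in Tie2-positive replicates 1, 2 and 3, against 6.48, 6.79 and 6.95 in Tie2-negative replicates 1, 2 and 3. The Tie2-positive arrays were again all lower. The change of -0.52 ± 0.19 (SE, n = 3 per population) did not pass (limma adjusted p = 0.137), though it did with arrays weighted by their quality (-0.68, limma adjusted p = 0.0161). Its other probe set changed by -0.21 ± 0.15 (SE) and overlapped between populations.

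Stat3, the transcription factor that gp130 activates, rose in Tie2-positive cells. Its values were 9.59, 8.83 and 9.04 in Tie2-positive replicates 1, 2 and 3, against 7.62, 7.88 and 7.38 in Tie2-negative replicates 1, 2 and 3. All Tie2-positive arrays lay above all Tie2-negative arrays, with a smaller spread among Tie2-positive arrays than Il6st, Lifr or Osmr had. The change was 1.53 ± 0.27 (SE, n = 3 per population; limma adjusted p = 0.0269), a 2.88-fold difference. Of its other probe sets, 1 was also called (1.32 ± 0.29, SE; limma adjusted p = 0.0484 over all probe sets). The others changed by 0.91 ± 0.26 (SE) and -0.21 ± 0.15 (SE) and did not pass. Averaged across its 4 probe sets, Stat3 changed by 0.89 and missed the threshold (limma adjusted p = 0.0541). These are transcript levels, and the arrays do not measure STAT3 activation.

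Among the ligands, Il6 rose and neither Lif nor Osm passed. Il6, the cytokine that names the family, had values of 6.70, 4.85 and 6.72 in Tie2-positive replicates 1, 2 and 3, against 3.55, 3.54 and 3.37 in Tie2-negative replicates 1, 2 and 3. All Tie2-negative values lay under the lower quartile of all gene values (5.11), and the highest Tie2-positive value was near their median (6.55). Tie2-positive replicates 1 and 3 were nearly equal and replicate 2 was lower. The change was 2.603 ± 0.49 (SE, n = 3 per population; limma adjusted p = 0.0295), and it rested on the gene's single probe set. Il6 did not pass without Tie2-positive replicate 3 (2.29, limma adjusted p = 0.0519) or Tie2-negative replicate 3 (2.55, 0.0936), and without Tie2-positive replicate 2 the change was 3.22.

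Osm, which encodes oncostatin M, a product of activated myeloid cells among others, had values of 6.56, 7.18 and 8.19 in Tie2-positive replicates 1, 2 and 3, against 7.20, 7.71 and 7.33 in Tie2-negative replicates 1, 2 and 3. The populations overlapped, and both the highest and the lowest value were Tie2-positive. The change was -0.10 ± 0.42 (SE, n = 3 per population; limma adjusted p = 0.884), with a 95% interval of -1.10 to 0.89, and its sign turned with the values as deposited (0.06) and with arrays centred on their medians (0.11). Among Tie2-positive arrays, Osm was highest where the neutrophil and monocyte median was highest (13.34) and lowest where it was lowest (6.01), and the part of those cells in it was not tested.

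Lif, which encodes leukaemia inhibitory factor, had values of 5.46, 5.28 and 5.23 in Tie2-positive replicates 1, 2 and 3, against 5.59, 5.70 and 4.97 in Tie2-negative replicates 1, 2 and 3. The populations overlapped at a level under the median of all gene values. The change was -0.09 ± 0.21 (SE, n = 3 per population; limma adjusted p = 0.789), and that of its other probe set 0.25 ± 0.17 (SE). The transcripts of the ligands of Lifr and Osmr thus gave no call in either direction. For the Lif probe set used, the 95% interval ran from -0.60 to 0.41.

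**Figure D3:**
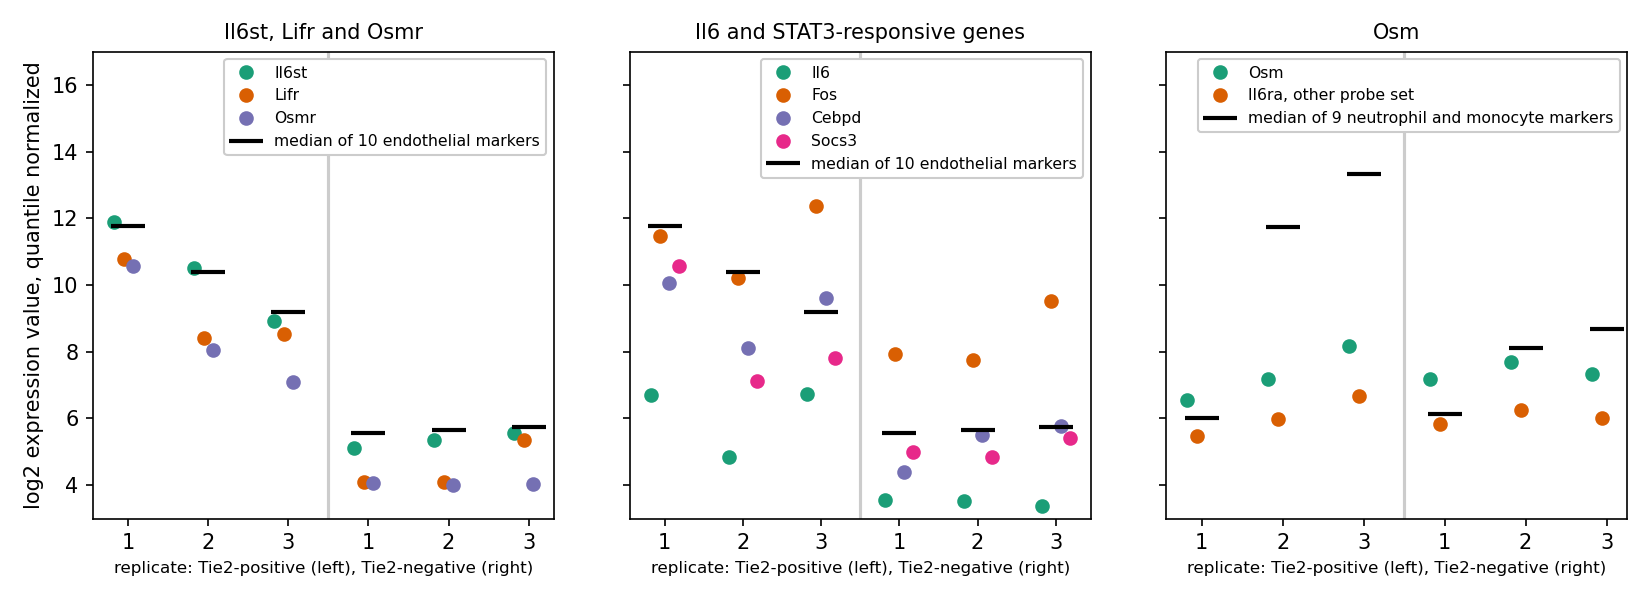
The panels give quantile-normalized log2 values (vertical axis) on each array, Tie2-positive replicates left and Tie2-negative replicates right of the grey line, with coloured points for genes and black bars for the median of 10 endothelial (left and middle) or 9 neutrophil and monocyte markers (right). Il6st, Lifr and Osmr are highest on Tie2-positive replicate 1, where the endothelial median is 11.78, Il6 and Cebpd are lowest among Tie2-positive arrays on replicate 2, and Osm is highest on Tie2-positive replicate 3, where the neutrophil and monocyte median is 13.34.

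The rest of the pathway was read from 6 lists of 51 genes, of which 45 were measured. In limma, 4 of the 45 rose, 0 fell and 41 did not pass, with a median change of 0.16, against -0.11 over all genes, of which 7.39% were called. All 4 belong to the 17 genes known to respond to STAT3, a list of genes that many other signals also induce. Lrg1, a secreted glycoprotein of endothelium and neutrophils, gave 11.09, 10.47 and 7.87 in Tie2-positive replicates 1, 2 and 3 against 4.24 to 4.78 in Tie2-negative arrays, an increase of 5.21 ± 0.79 (SE, 3 arrays each; limma adjusted p = 0.0176). Cebpd, a transcription factor of the acute-phase response, gave 10.05, 8.10 and 9.62 in Tie2-positive replicates 1, 2 and 3 against 4.41 to 5.78 in Tie2-negative arrays, and rose by 4.03 ± 0.58 (SE; limma adjusted p = 0.0154). Averaged across its probe sets, Cebpd changed by 2.14 (limma adjusted p = 0.0302). Cebpd did not pass without Tie2-negative replicate 1 or 2 (limma adjusted p = 0.0755 and 0.0736). Among Tie2-positive arrays, Lrg1 was lowest on replicate 3 and Cebpd on replicate 2. All Tie2-negative Lrg1 values lay under the lower quartile of all gene values (5.11). Without Tie2-positive replicate 1 the Lrg1 change was 4.57, and without Tie2-positive replicate 3 it was 6.18. With any other single array left out Lrg1 did not pass (limma adjusted p = 0.0550 to 0.0917).

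Fos, an immediate early gene, gave 11.46, 10.21 and 12.37 in Tie2-positive replicates 1, 2 and 3 against 7.92, 7.75 and 9.52 in Tie2-negative replicates 1, 2 and 3. The increase was 2.95 ± 0.67 (SE, 3 arrays each), close to the threshold (limma adjusted p = 0.0473), and it did not pass with eBayes fitted without a trend (limma adjusted p = 0.0528). Hif1a, the hypoxia-inducible factor HIF-1 alpha, rose by 1.76 ± 0.36 (SE; limma adjusted p = 0.0357), with values between 10.62 and 11.59 in Tie2-positive and between 8.71 and 9.63 in Tie2-negative arrays. Averaged across its probe sets, Hif1a changed by 0.77 and missed the threshold (limma adjusted p = 0.0808). With any single array other than Tie2-positive replicate 1 left out, neither Fos (limma adjusted p = 0.0504 to 0.158) nor Hif1a (0.0546 to 0.118) passed. The other 13 STAT3-responsive genes did not pass. Their changes ran from -0.95 ± 0.47 (SE) for Pim1 to 2.61 ± 0.71 (SE) for Icam1 (limma adjusted p = 0.233 and 0.0740). Mcl1, a survival factor with 11.20 in both populations, lay between them. Of all 17 genes of this list, 10 had a higher mean in Tie2-positive arrays.

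No other list held a call. Of the 8 Janus kinases and adaptors, Jak2 changed by -0.22 ± 0.25 (SE) and the phosphatase gene Ptpn11 by 0.27 ± 0.22 (SE). Of 5 other STAT factors, Stat5b changed by -0.34 ± 0.31 (SE) and Stat6 by 0.68 ± 0.27 (SE). The proteases Adam10 and Adam17, which release soluble IL-6 receptor, changed by -0.13 ± 0.32 (SE) and 0.38 ± 0.29 (SE), n = 3 per population in each case. Of 4 other measured ligand genes, Ctf1 (cardiotrophin) changed by 0.21 ± 0.33 (SE). Ebi3, a subunit of IL-27, spread from 4.83 to 9.82 among Tie2-positive arrays, against 5.74 to 6.26 in Tie2-negative arrays, and like Osm it was highest on the array with the highest neutrophil and monocyte median. The part of those cells in it was not tested.

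Of the 7 inhibitors, the phosphatase genes Ptpn2 and Ptpn6 changed by -0.51 ± 0.32 (SE) and -0.05 ± 0.79 (SE). Socs3, named after its values were seen, gave 10.56, 7.13 and 7.80 in Tie2-positive replicates 1, 2 and 3, against 5.01, 4.84 and 5.41 in Tie2-negative replicates 1, 2 and 3. The populations did not overlap, but the spread among Tie2-positive arrays was wide, and the change of 3.41 ± 0.83 (SE, n = 3 per population) missed the threshold (limma adjusted p = 0.0566). It passed with the values as deposited (3.47, limma adjusted p = 0.04997) and without Tie2-positive replicate 1 (2.38, 0.00302). It also passed with centred arrays, with array weights and with the filter on low levels. Socs3 did not pass with a replicate block or averaged probe sets (limma adjusted p = 0.0881 and 0.0799). Nor did it with eBayes robust or without a trend (0.0596 and 0.0629). With any other single array left out it did not pass either (limma adjusted p = 0.0588 to 0.166). The Socs3 probe set used is of a kind that can match several transcripts, and without such probe sets Socs3 changed by 0.52 (limma adjusted p = 0.403).

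**Figure D4:**
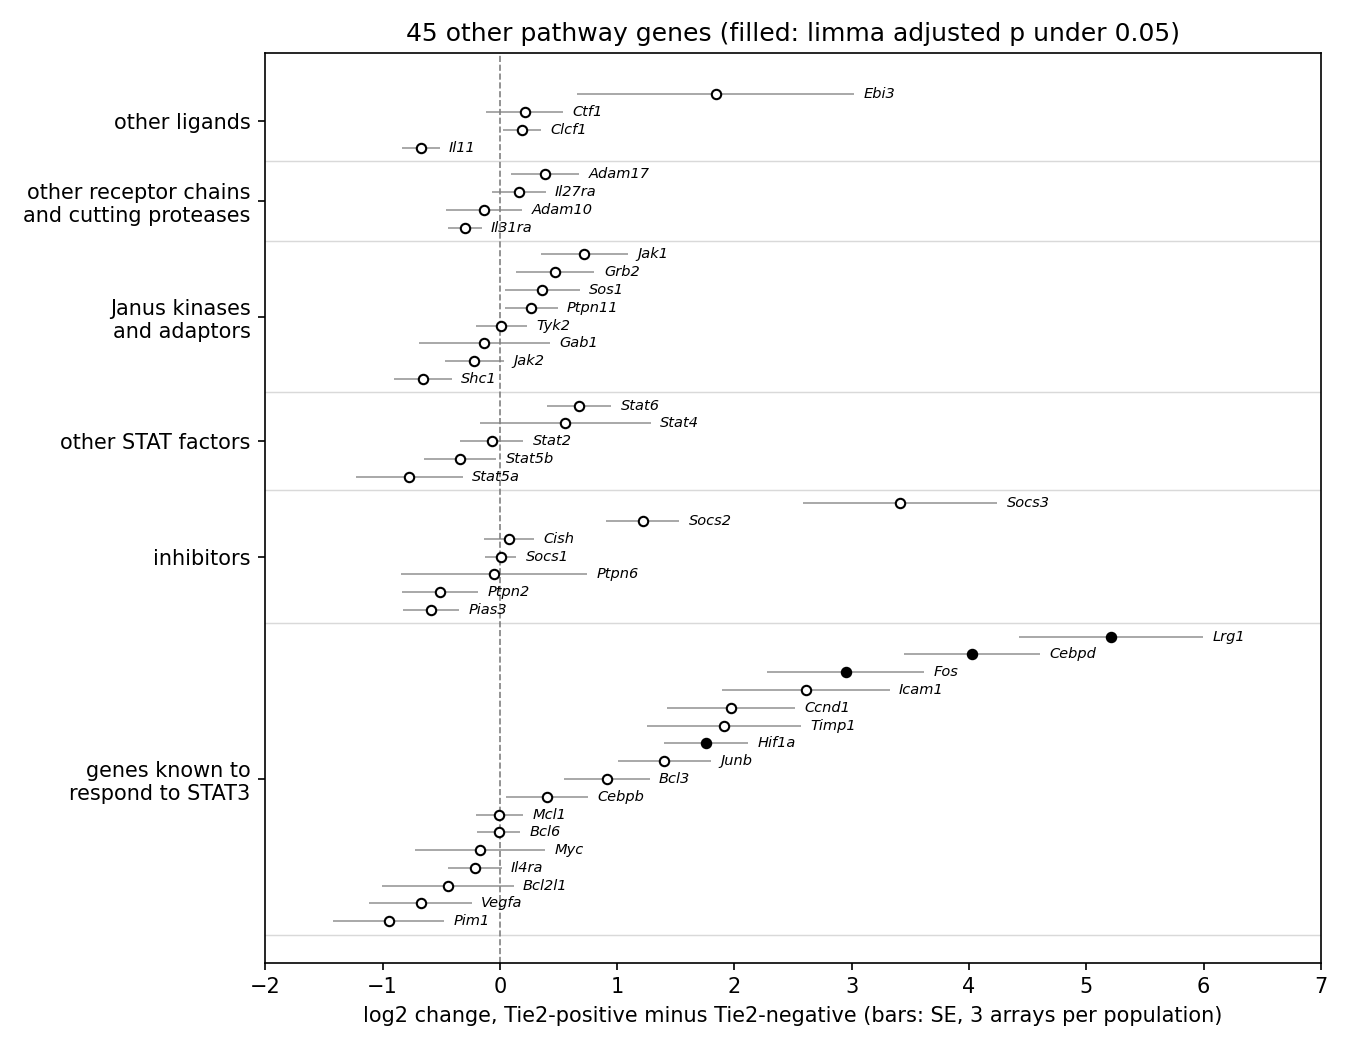
The plot gives the log2 change (horizontal axis, Tie2-positive minus Tie2-negative, bars for the SE, 3 arrays per population) of 45 other pathway genes grouped by list, filled where the limma adjusted p was under 0.05. The 4 filled points, Lrg1, Cebpd, Fos and Hif1a, all lie among the genes known to respond to STAT3, and Socs3 is an open point at 3.41.

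For the 5 members whose values spanned over 2 log2 units, the genes with the most similar values over the 6 arrays were listed from 2241 or 2242 genes that spanned as much and had a mean above that of the median gene. The likeness is Pearson's r over 6 arrays, and since these fall into separate populations the difference between the populations enters it. Closest to Il6st were Plvap, a protein of endothelial diaphragms, Ptprf, Tcim, Cmtm3 and Timp3 (r of 0.998 to 0.999). Closest to Osmr were Grasp, Plekhg1, the endothelial transcription factor Sox7, Mfge8 and She (0.9981 to 0.9996). Those closest to Lifr were Dock1, Igf2, Zyg11b, Ltbp3 and Ppp1r9a (0.9968 to 0.9996), and to Stat3 Ap1s2, Marcks, Mfsd6, Grn and Cers5 (0.993 to 0.999). For Il6 they were Ctsh, Jdp2, the immediate early gene Ier2, Klf6 and Rflnb (0.977 to 0.984), so no gene came as close to Il6 as to the other 4.

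The calls depended on single arrays. Without Tie2-negative replicate 1 or 2, limma called 0 of the 9 members and 0 of all 18193 genes (6 and 5 members, and 4012 and 3980 genes, had an unadjusted p under 0.05). Without Tie2-positive replicate 2 it called 3 members (Il6st, Lifr and Il6), and without Tie2-negative replicate 3 it called 2 (Il6st and Lifr). Tie2-positive replicates 2 and 3, the arrays rich in neutrophil and monocyte transcripts, were also both left out. The changes of Il6st, Lifr and Osmr were then 6.54, 6.28 and 6.54, with the lone array assumed to vary like the other population. That array, replicate 1, held the highest Tie2-positive value of each of these genes, so larger changes follow from leaving out the others. The part of neutrophils and monocytes in the calls was not tested by this.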

How the data were processed

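RNA of 6 sorted samples, amplified in a double round per the labels' protocols, was hybridised to Affymetrix 430-2.0 arrays. The authors deposited 1 log2 value per probe set and array; the log2 scale was inferred from their range, and the summary and normalization steps are not given in the sources used here. Of 45101 probe sets, 64 controls were left out of the tests. Of the other 45037, 34945 carried 1 gene symbol, 932 several and 9160 were unnamed here, per a table of the platform's annotation. A RefSeq table (GRCm38.p6) held the gene IDs of 34741 and changed 0 symbols.

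The upper quartiles of the arrays ran from 7.45 to 7.53 in Tie2-positive and from 7.26 to 7.33 in Tie2-negative arrays. Their range of 0.27 passed a limit of 0.1, so values were quantile normalized, and this scaling difference separated the populations. The fit was limma 3.58.1 in R 4.3.3 (lmFit, eBayes with a mean trend), two-sided, without covariates, with Benjamini-Hochberg adjustment. When tested on simulated data (18193 genes, 3 arrays per population), it recovered 34% of genes changed by 1, 78% by 2, 84.8% by 3 and 94.8% by 5 on the log2 scale. The simulation gave both populations the same spread per gene and changed a small part of the genes. On the real arrays the spread could be unequal (Osmr SD 1.80 in Tie2-positive and 0.02 in Tie2-negative arrays), so these shares need not hold here. The number of arrays limits the precision. No 2 arrays held identical values (0 pairs). The numbers were not taken as pairs, since nothing in the labels says that a number marks a shared litter. Deviations of same-numbered arrays correlated by 0.14, 0.005 and 0.186, which does not settle whether they were pairs. The choice matters, since with a replicate block 0 genes were called.

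Members, gene lists and alternatives were chosen with earlier results of these data known. The motifs, Socs3, Mcl1, Pim1, Icam1, Socs2 and Il11 were chosen after values were seen. Named were all members, the called genes of each pathway list (or, with none, the 2 with the highest mean), the sort genes Tek, Itgav and Ptprc, and for members spanning over 2 units the 5 genes most like them. Itgav, the other gate gene, was 8.92 ± 0.40 (SD) in Tie2-positive and 7.16 ± 0.09 (SD) in Tie2-negative arrays (n = 3 each). Of the marker lists not described in the results, macrophages (7 measured) had 1 gene called higher (Mrc1) and T and NK cells (7) had 1 called lower (Cd2). The other 6 measured genes of each list did not pass. Of all genes, 4.86% were called higher and 2.53% lower. Coordinates are given for the printed sequences only, since no build is named for the array's probes.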

Additional observations from a re-analysis of the deposited data

How the results depend on the processing

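The comparison was refitted with a replicate block, with deposited or median-centred values, with only genes above the 40th percentile in mean level, with each gene's probe sets averaged, with x_at and s_at probe sets dropped, with eBayes robust or without a trend, with array weights, and with arrays left out. In limma with the replicate block, 0 of all genes, 0 members, 0 pathway genes and 0 other probe sets of the members were called, while 5080 genes, 5 members, 14 pathway genes and 5 such probe sets had an unadjusted p under 0.05 (smallest adjusted p 0.0521 over all genes and 0.0551 among members). Of the Tie2-positive arrays, replicates 1 and 3 but not 2 deviated most like the Tie2-negative array of the same number. Without 1 array, limma called between 0 and 2148 of all genes (against 1345), 0 to 5 members (5), 0 to 10 pathway genes (4) and 0 to 3 other probe sets (2). Pathway calls numbered 3 with eBayes without a trend, where Fos did not pass, 5 each with the filter, averaged probe sets or robust eBayes, 4 without x_at and s_at probe sets, 7 with the values as deposited, 7 with centred arrays, 13 with array weights and 19 with Tie2-positive replicates 2 and 3 both left out, and over all genes the last of these settings gave 3637 and array weights 4639. Socs3 and Socs2, higher in Tie2-positive arrays, and Il11, lower there, were the additions with the deposited or centred values. The members called were 5 with the deposited or centred values, without x_at and s_at probe sets, and with eBayes robust or without a trend. They were 4 with the filter, which removed Il6 and Lif, and 4 over the mean of probe sets, where Stat3 did not pass. With array weights they were 6, where Cntfr also passed. No called member changed sign under any of these settings. In each of the fits with fewer arrays the number of arrays sets the precision. Whether the low Tie2-negative values of Lifr, Osmr, Il6 and Lrg1 lie above background could not be read from this table.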
